A study of Mus musculus with 10 samples.

Results

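The broad H3K4me3 peaks of *Scl:mCherry* cells are the stretches of at least 3000 bp in the WT H3K4me3 peak list. They were chosen by 1 measured value, the length of the peak, and numbered 980 of the 16038 WT H3K4me3 peaks (6.11%). The cells were mCherry+ cells sorted from day 4 embryoid bodies (EBs), aggregates of differentiating mouse ES cells, and were processed by ChIP-Rx, which mixes in *Drosophila* S2 cells as a reference. WT cells were heterozygous for an mCherry reporter at *Scl* (also *Tal1*) and expressed wild-type SCL, whereas Delta cells came from the same line after deletion of the basic helix-loop-helix domain on both alleles (*Scl* Δ/Δ:mCherry). Both lines go back to J1 ES cells and were expanded from single sorted cells. H3K4me3, H3K27ac, H3K27me3 and H2AK119ub were each profiled in 1 library per genotype, so every difference between WT and Delta below is a difference between 2 libraries, has no replicate check and carries no p-value.

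H3K4me3 is laid down at the promoters of active and poised genes by SET1 and MLL methyltransferases. Most promoters carry a narrow peak, and unusually long peaks are known to mark genes tied to the identity of a cell. H3K27ac is found at active promoters and enhancers. H3K27me3 is deposited by Polycomb PRC2 and H2AK119ub by Polycomb PRC1, both at silenced developmental genes, and promoters carrying H3K4me3 together with H3K27me3 are termed bivalent. SCL is the transcription factor that blood specification from mesoderm depends on.

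In many broad peaks the part covered by H3K4me3 in both genotypes and the part covered in WT only differed in base composition. Windows of 200 bp from 3 members are shown for this contrast (mm9, strand of the gene, CpG in capitals). They were chosen after their values were seen. Each window is the one nearest to the centre of the longest stretch covered by Delta H3K4me3, or not covered by it, that touches no annotated UTR. For *Kdr*, which encodes the VEGF receptor FLK1, the covered window lay at chr5:76373695-76373894 and the uncovered window at chr5:76371463-76371662, both intronic on the minus strand. For *Runx1*, a transcription factor needed for definitive blood, they lay at chr16:92697574-92697773 and chr16:92694166-92694365, both intronic on the minus strand. For *Egfl7*, which encodes a protein secreted by endothelium, they lay at chr2:26442466-26442665 and chr2:26440666-26440865, both intronic on the plus strand.
Kdr, covered in Delta: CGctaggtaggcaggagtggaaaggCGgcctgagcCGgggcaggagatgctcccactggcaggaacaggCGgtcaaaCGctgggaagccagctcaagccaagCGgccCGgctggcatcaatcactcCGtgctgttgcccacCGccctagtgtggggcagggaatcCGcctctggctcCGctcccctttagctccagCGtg
Kdr, not covered in Delta: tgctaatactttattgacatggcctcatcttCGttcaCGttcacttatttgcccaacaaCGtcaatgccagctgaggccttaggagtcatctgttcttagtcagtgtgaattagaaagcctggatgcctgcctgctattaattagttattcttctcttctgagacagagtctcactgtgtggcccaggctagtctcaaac
Runx1, covered in Delta: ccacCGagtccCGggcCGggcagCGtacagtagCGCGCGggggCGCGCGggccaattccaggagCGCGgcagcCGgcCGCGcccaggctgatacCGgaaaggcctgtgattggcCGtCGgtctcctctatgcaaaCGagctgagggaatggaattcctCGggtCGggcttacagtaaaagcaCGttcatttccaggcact
Runx1, not covered in Delta: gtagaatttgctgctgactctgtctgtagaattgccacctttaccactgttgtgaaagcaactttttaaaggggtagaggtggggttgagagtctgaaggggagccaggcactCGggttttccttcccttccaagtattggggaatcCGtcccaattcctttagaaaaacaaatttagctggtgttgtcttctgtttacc
Egfl7, covered in Delta: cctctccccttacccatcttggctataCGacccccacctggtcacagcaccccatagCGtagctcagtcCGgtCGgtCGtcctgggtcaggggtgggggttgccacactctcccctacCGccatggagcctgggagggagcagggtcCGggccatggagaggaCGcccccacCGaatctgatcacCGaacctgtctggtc
Egfl7, not covered in Delta: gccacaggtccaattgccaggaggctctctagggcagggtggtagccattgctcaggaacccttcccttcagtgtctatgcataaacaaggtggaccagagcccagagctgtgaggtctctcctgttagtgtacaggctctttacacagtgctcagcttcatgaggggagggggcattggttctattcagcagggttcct
The windows of *Kdr* held 12 CpGs and 3 CpGs, those of *Runx1* 22 and 2, and those of *Egfl7* 10 and 0, in each case with more in the window that kept H3K4me3. Their GC contents were 66.0% and 44.5% for *Kdr*, 65.0% and 45.5% for *Runx1*, and 65.0% and 54.5% for *Egfl7*. The windows also differed in place, with centres at 688 and 2920 bp from the first TSS for *Kdr*. The centres were at -101 and 3307 bp for *Runx1*, and at 416 and -1384 bp for *Egfl7*.

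The broad peaks covered 3.76 Mb, which was 16.3% of the 23.0 Mb under all WT H3K4me3 peaks. Their median length was 3520 bp (quartiles 3202 and 4152 bp), against 1270 bp for all WT H3K4me3 peaks, and 285 members reached 4000 bp, 93 reached 5000 bp and 17 reached 7000 bp. The median fold enrichment over background, as deposited by the authors, was 8.38 for the broad peaks and 6.42 for the whole list. These values come from the same library as the length and describe the selection. The limit of 3000 bp cut a continuous range. The 129 peaks of 3000 bp to under 3100 bp had a median of 83.3% of their length covered by Delta H3K4me3, with WT H3K27ac at 60.5% of them, WT H3K27me3 at 66.7% and WT H2AK119ub at 10.1%. For the 147 peaks of 2900 bp to under 3000 bp, just under the limit, the corresponding values were 87.4%, 74.1%, 60.5% and 13.6%.

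The longest broad peak, 10459 bp, lay at *Tnrc18* (chr5:143575093-143585551). The next was 9366 bp at *Setd1b*, which encodes an H3K4 methyltransferase, followed by 9092 bp at *Irs2*, an adaptor of insulin signalling. *Bahcc1* (8329 bp), *Zfp608* (8284 bp), *Bcl11a* (8224 bp, with the TSS of A830031A19Rik), the inhibitory Smad gene *Smad7* (8049 bp), the Wnt receptor gene *Fzd10* (7782 bp), the RNA-binding protein gene *Igf2bp3* (7727 bp) and the acetyl-histone reader gene *Brd2* (7713 bp) completed the 10 longest. Of these 10, 7 were touched by WT H3K27ac and 8 by WT H3K27me3, close to the 67.3% and 73.9% of all 980 broad peaks.

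A transcription start site (TSS) of a protein-coding gene lay inside 926 of the 980 broad peaks (94.5%, 95% Wilson interval 92.9 to 95.8), compared with 70.0% (69.3 to 70.7) of all WT H3K4me3 peaks. A longer stretch has more room for a TSS, and the share is given without adjustment for length. The broad peaks held the TSSs of 1136 of 22359 protein-coding genes (5.08%), with 1 gene in 722 members, 2 genes in 195 and 3 genes in 9. Of the 54 members without a protein-coding TSS, 17 held the TSS of another annotated gene, such as the long non-coding RNA gene *Malat1* (7019 bp) and the microRNA cluster host *Mir17hg* (3562 bp). *Gfi1*, a transcriptional repressor gene of blood, was among these 17 because the annotation used lists it without a coding transcript.

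Measured from the first TSS inside, the broad peaks reached further downstream than upstream. In the 722 members with 1 coding gene, the median reach from the first TSS was 1006 bp upstream and 2606 bp downstream, and 88.2% of them (85.7 to 90.4) were longer on the downstream side. The first TSS is the one furthest upstream inside the member, a choice that favours the downstream side. The same reach was not measured for shorter peaks. In the profile by distance from the TSS, WT H3K4me3 covered 51.2% of these members at 1000 bp upstream, 98.8% at 1000 bp downstream and 81.0% at 2000 bp downstream. H3K27ac was narrower, with the highest cover 300 bp downstream of the TSS in both genotypes, where it covered 48.1% of members in WT and 54.3% in Delta. H3K27me3 was highest 500 bp downstream in WT (57.1% of members) and 600 bp downstream in Delta (48.6%). H2AK119ub never covered more than 5.68% of members at any distance in WT, or 3.88% in Delta.

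**Figure D1:**
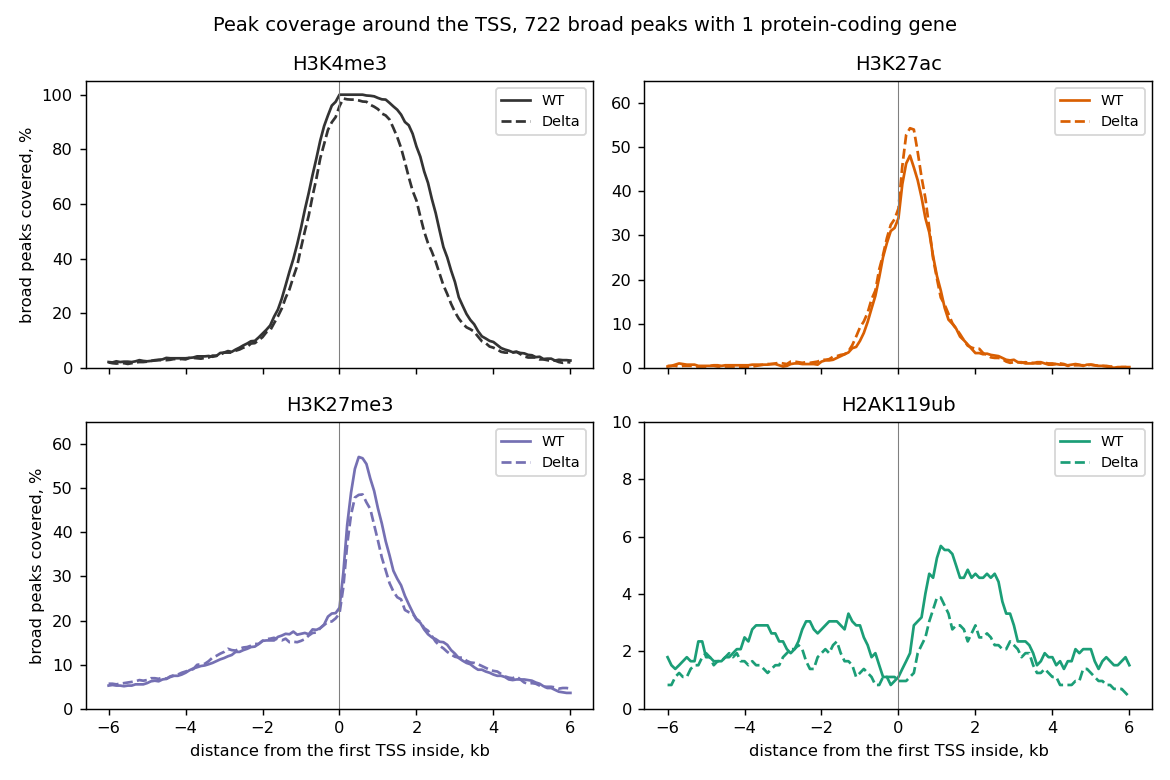
Share of the 722 broad peaks with 1 protein-coding gene whose surroundings are covered by a peak of each mark, by distance from the first TSS inside the peak in kb (positive is downstream). Solid lines are WT and dashed lines Delta, and each panel has its own vertical scale. H3K27ac and H3K27me3 were both highest within 600 bp downstream of the TSS, at 48.1% and 57.1% of members in WT.

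H3K27ac touched 660 of the 980 broad peaks in WT, a share of 67.3% (64.3 to 70.2), and 706 in Delta, 72.0% (69.1 to 74.8). Over all WT H3K4me3 peaks the shares were 24.7% in WT and 28.5% in Delta. Because a longer peak is more likely to be touched, the central 1000 bp were also compared. There, WT H3K27ac was found at 54.7% (51.6 to 57.8) of the broad peaks and at 53.0% (51.1 to 54.9) of the peaks of 2000 bp to under 3000 bp, against 3.50% of the peaks under 1000 bp, whose window extends past the peak. On this equal window, then, the broad peaks and the next length class had overlapping intervals. The central windows are equal in length only, here and for the marks below. Their distance from the TSS was not matched between length classes. Where it was present, H3K27ac covered a median of 28.5% of the member in WT and 28.2% in Delta, and at least 50% of the member in 7.76% and 7.24% of the broad peaks. It sat in the interior. The central 1000 bp had 32.4% of their bp under WT H3K27ac, and the outer 500 bp at each end had 5.75%.

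Most broad peaks had H3K27ac in both genotypes (605 members, 61.7%, against 20.2% of all WT H3K4me3 peaks). H3K27ac covered more bp in Delta at 397 members and more in WT at 364, which was not counted over all peaks. It was found in WT only at 55 members (5.61%, against 4.51% of all WT H3K4me3 peaks) and in Delta only at 101 (10.3%, against 8.31%). The 3 longest members with H3K27ac in WT only were those of *Gata2*, a blood transcription factor gene (189 bp of H3K27ac), *Spry2*, a feedback inhibitor of FGF signalling (288 bp), and *Tal1* itself (1833 bp). The 3 longest with it in Delta only were those of *Zfp608* (190 bp), *Fzd10* (225 bp) and the co-repressor gene *Sin3a* (471 bp). Of these 6, the *Tal1* stretch was by far the longest. With covering peaks limited to a −log10 q of at least 3, the WT and Delta shares were 52.0% and 52.6%.

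In WT, H3K27me3 touched 724 of the broad peaks, a share of 73.9% (71.0 to 76.5), and in Delta it touched 645, or 65.8% (62.8 to 68.7), compared with 50.6% and 47.3% of all WT H3K4me3 peaks. In the central 1000 bp the WT share was 64.3% (61.2 to 67.2) for the broad peaks and 55.7% (53.8 to 57.6) for the peaks of 2000 bp to under 3000 bp. The stretches were short relative to the member. H3K27me3 covered at least 50% of the length in only 17.9% of the broad peaks in WT, against 32.0% of all WT H3K4me3 peaks, and 28.6% of the bp of the broad peaks against 31.0%. With covering peaks limited to a −log10 q of at least 3, the shares were 44.6% for WT and 37.1% for Delta, beside 37.2% and 36.2% of all peaks. The paper reports lower spike-in scaled H3K27me3 signal around TSSs in Delta, and less of the mark by western blot. That signal was not measured here.

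H3K27me3 was found in both genotypes at 566 broad peaks (57.8%, against 41.0% of all WT H3K4me3 peaks). It was found in WT only at 158 (16.1%, against 9.60%) and in Delta only at 79 (8.06%, against 6.26%). More bp were covered in WT than in Delta at 465 members and more in Delta at 279, again not counted over all peaks. The longest members with it in WT only were those of the transcriptional repressor gene *Tgif1* (3342 bp of H3K27me3), *Spry2* (903 bp), and the heterochromatin protein gene *Cbx5* with *Hnrnpa1* (343 bp). In Delta only they were those of *Sin3a* (336 bp), *Nrp1*, which encodes a co-receptor for semaphorins and VEGF (758 bp), and *Sox11* (1023 bp). The longest members covered over at least 50% of their length in both genotypes were those of *Ptch1*, the Hedgehog receptor gene, where WT H3K27me3 covered 3305 bp and Delta H3K27me3 3345 bp, *Runx1* with 4043 and 3949 bp, and *Igf2*, a growth factor gene, with 5503 and 4379 bp.

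**Figure D2:**
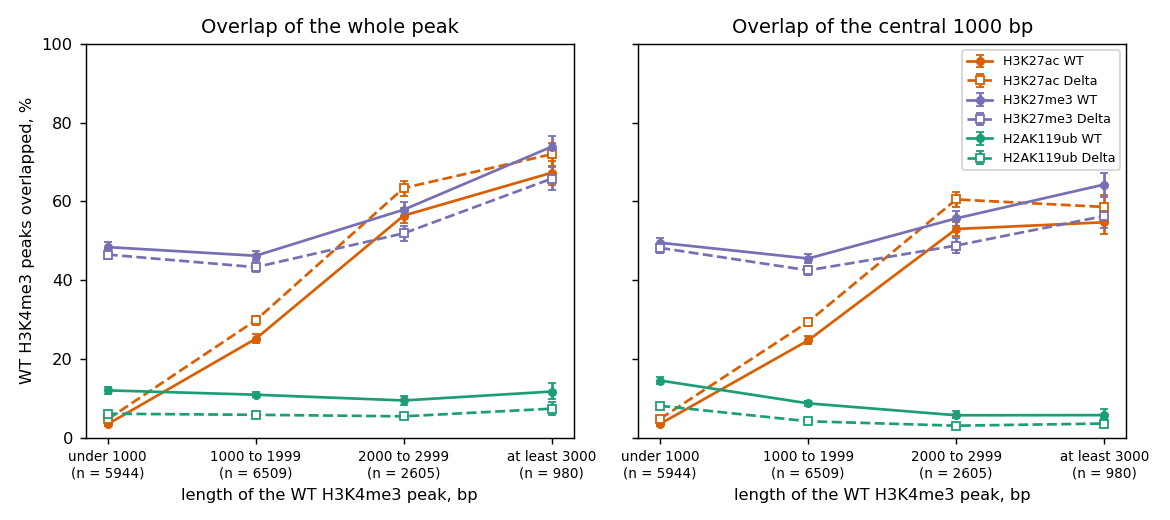
Share of WT H3K4me3 peaks overlapped by peaks of 3 other marks, by length of the H3K4me3 peak, for the whole peak (left) and its central 1000 bp (right). Filled circles with solid lines are WT, open squares with dashed lines Delta, and error bars are 95% Wilson intervals (counting error only). On the central 1000 bp WT H3K27ac was found at 54.7% of the broad peaks and 53.0% of the next class.

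H3K27ac and H3K27me3 were found together at 493 broad peaks in WT (50.3%, 47.2 to 53.4) and at 453 in Delta (46.2%, 43.1 to 49.4). Over all WT H3K4me3 peaks these shares were 12.4% and 11.8%. Each mark alone was also commoner at the broad peaks, as given above. No joint share expected from the single shares or from length was computed. Both marks were highest within 600 bp downstream of the TSS, and no overlap expected from that was computed. They shared at least 1 bp in 92.3% of the members with both in WT and in 91.8% in Delta, and 51.1% and 45.1% of the H3K27ac bp of these members lay under H3K27me3. Whether both marks lay on the same nucleosomes, alleles or cells cannot be told apart in these libraries.

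The H3K27me3 peaks at these members were shorter and lower than those at members without H3K27ac. Those touching a member with H3K27ac had a median length of 876 bp, a median fold enrichment of 3.49 and a median −log10 q of 3.01 in WT (525 peaks), against 3123 bp, 4.26 and 4.74 for those touching a member without H3K27ac (259 peaks). In Delta the values were 746 bp, 3.45 and 2.79 (482 peaks) against 3790 bp, 4.81 and 6.58 (215 peaks). Over the whole H3K27me3 lists they were 1304 bp, 3.71 and 3.34 in WT and 1439 bp, 3.88 and 3.59 in Delta, so in fold and q the peaks at members with H3K27ac lay only a little under a typical H3K27me3 peak. The share with H3K27me3 moved with the strength of the H3K4me3 peak. From the lower through the middle to the upper tertile of the members by −log10 q of H3K4me3, WT H3K27me3 was found at 60.2%, 71.5% and 89.9%, and WT H3K27ac at 33.0%, 76.4% and 92.7%. H2AK119ub went the other way, at 25.1%, 5.83% and 4.28%. The part of local enrichment in the H3K27me3 calls was not tested.

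Members with 1 of the marks mostly kept it. WT H3K27ac without H3K27me3 was found at 167 members and WT H3K27me3 without H3K27ac at 231. Of the 167, 89.2% (83.6 to 93.1) had H3K27ac in Delta and 35.9% (29.0 to 43.4) had H3K27me3. Of the 231, 90.9% (86.5 to 94.0) had H3K27me3 in Delta and 27.3% (21.9 to 33.4) had H3K27ac. H3K27ac in both genotypes with no H3K27me3 in either was found at 92 members, of which the longest were *Setd1b* (5080 bp of H3K27ac in WT and 3401 bp in Delta), a histone gene cluster with *Hist1h2af*, *Hist1h3g* and *Hist1h4h* (914 and 384 bp), and a region without a protein-coding TSS at chr11:69228050-69234110. Histone genes have near-identical copies, and reads from them may have been assigned with error.

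Among called peaks, those of H2AK119ub were the rarest at the broad peaks. They touched 115 members in WT (11.7%, 9.87 to 13.9) and 72 in Delta (7.35%, 5.87 to 9.15). Over all WT H3K4me3 peaks the shares were 11.1% and 5.93%. With covering peaks limited to a −log10 q of at least 3, the WT share was 0.408%, beside 0.330% of all peaks. The paper reports SCL-dependent H2AK119ub signal over wide domains around TSSs, which was not measured here. In the central 1000 bp WT H2AK119ub was at 5.71% (4.43 to 7.35) of the broad peaks and 5.68% (4.86 to 6.64) of the peaks of 2000 bp to under 3000 bp, against 10.2% (9.72 to 10.7) of all peaks and 14.5% of those under 1000 bp. In WT, 107 of the 115 also had H3K27me3. It was found in WT only at 57 members (5.82%, against 6.70% of all) and in Delta only at 14 (1.43%, against 1.50%). The longest members with H2AK119ub in both genotypes were *Bahcc1* (950 bp in WT, 1426 bp in Delta), *Fzd10* (324 and 325 bp) and *Gata2* (3469 and 3406 bp). In WT only they were the homeobox gene *Meis2* (324 bp), the T-box gene *Tbx3* (100 bp) and the inhibitory Smad gene *Smad6* (416 bp), and in Delta only *Runx1* (12 bp), *Prdm6* (336 bp) and *Foxo3* (194 bp). At *Gata2*, then, the bp under called H2AK119ub peaks differed by under 100 bp between genotypes, and the Delta-only stretch at *Runx1* was a peak edge. The Delta H2AK119ub list was shorter as a whole, and with the same number of top peaks taken from both lists the WT share was 7.14%, beside 7.35% in Delta.

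To ask how much of each broad peak remained in cells without functional SCL, the bp covered by Delta H3K4me3 peaks were counted. All 980 broad peaks were touched by a Delta H3K4me3 peak, against 92.1% of all WT H3K4me3 peaks. Delta peaks covered 84.2% of their bp, against 82.7% for all peaks and 84.9% for the peaks of 2000 bp to under 3000 bp. The median member was covered over 87.6% of its length (quartiles 75.8% and 95.8%) and lacked 454 bp. Under 50% was covered in 33 members (3.37%, 2.41 to 4.69, against 12.4% of all WT H3K4me3 peaks and 2.88% of those of 2000 bp to under 3000 bp), under 75% in 232, at least 90% in 428 and the whole length in 82. A single Delta peak touched 924 members, and 560 (57.1%) were touched by a Delta peak that itself reached 3000 bp.

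Members chosen for their length in 1 library tend to be shorter in another, so the rule was also run from the Delta list. It gave 681 Delta peaks of at least 3000 bp, holding the TSSs of 763 genes (3.41%), and WT H3K4me3 covered 92.0% of their bp. Of the 681, 56 were covered over less than 75% of their length, against 232 of 980 the other way round. Genes with a TSS in a broad peak of both lists numbered 637, with 499 in the WT list alone and 126 in the Delta list alone. Peaks of at least 3000 bp in either list merged into 1101 regions, of which 785 (71.3%) had more H3K4me3 bp in WT and 316 more in Delta, with a median difference of -321 bp (Delta minus WT). A region that reached 3000 bp in 1 list only tends to be longer in that list. These counts, and those by gene list below, are therefore not independent of the choice by length. The Delta list as a whole had a median fold enrichment of 6.01, against 6.42 in WT, and 15412 peaks, against 16038. By the read totals stated in the study's reporting summary, the Delta H3K4me3 library was the deeper one. The part of its enrichment in the length of its peaks was not tested. By the mapped reads stated there, the WT library was the deeper one for H3K27ac, H3K27me3 and H2AK119ub. By total reads the order was reversed for H3K27ac and H3K27me3. For WT H3K27ac the stated total equals the stated mapped reads, so that order is uncertain. The part of depth in the WT and Delta shares of these marks was not tested.

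**Figure D3:**
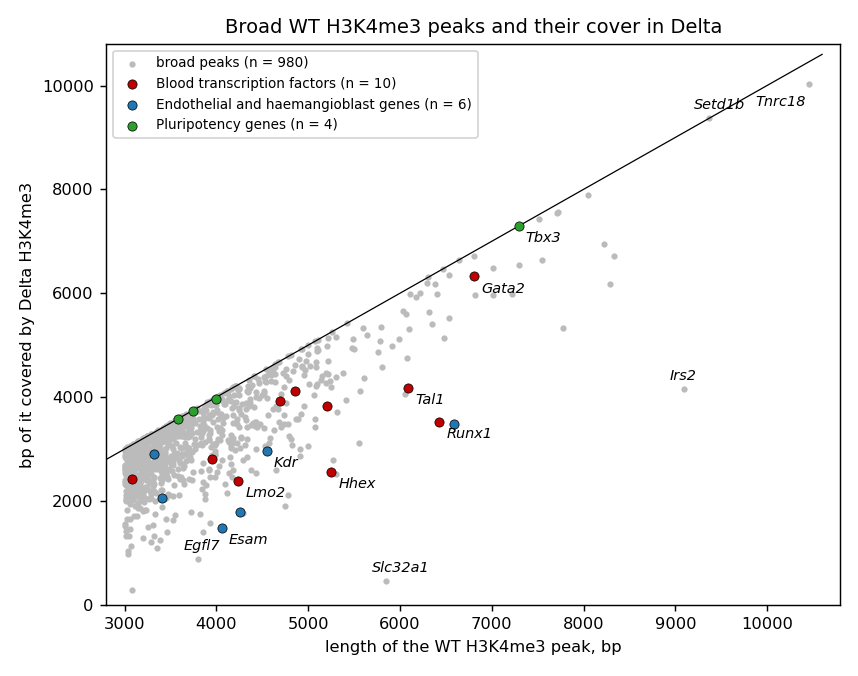
Length of each of the 980 broad WT H3K4me3 peaks in bp against the bp of it covered by Delta H3K4me3 peaks. The diagonal marks full cover, and coloured points are members with a TSS of a gene in 3 lists. The 4 members of the pluripotency list (*Tbx3*, *Lin28a*, *Sall4* and *Klf4*) lie on or near the diagonal. *Slc32a1* kept 455 of 5853 bp and *Irs2* 4160 of 9092 bp.

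The members with the most bp missing in Delta were *Slc32a1*, a neuronal vesicular transporter gene, with 455 of 5853 bp covered, *Irs2* with 4160 of 9092 bp, *Efnb2*, the gene of the arterial ligand ephrin-B2, with 3490 of 6589 bp, *Egfl7* with 874 of 3803 bp and *Runx1* with 3517 of 6428 bp. At *Slc32a1*, H3K27me3 covered 4913 bp in WT and the whole 5853 bp in Delta, and H2AK119ub 2764 and 4371 bp. *Egfl7* had neither Polycomb mark in either genotype, and its 318 bp of H3K27ac in WT were absent in Delta. *Irs2* kept similar H3K27ac (1569 and 1614 bp) and H3K27me3 (1583 and 2044 bp) while most of its H3K4me3 was missing.

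Among the 10 longest broad peaks the cover ran from 45.8% to 100%. Delta H3K4me3 covered the whole of *Setd1b*, 10025 of 10459 bp at *Tnrc18*, 7889 of 8049 bp at *Smad7*, 7558 of 7727 bp at *Igf2bp3* and 7540 of 7713 bp at *Brd2*. It covered less of *Bcl11a* (6941 of 8224 bp), *Bahcc1* (6723 of 8329 bp), *Zfp608* (6180 of 8284 bp) and *Fzd10* (5324 of 7782 bp), so *Irs2* stood lowest of the 10. H3K27ac had more bp in Delta at 6 of these members and more in WT at 3, beside 397 and 364 of all 980. It covered 5258 bp of *Tnrc18* in WT and 7740 bp in Delta, but 3851 and 3645 bp of *Brd2*. H3K27me3 had more bp in WT at 6 and more in Delta at 2, for example 5627 and 3914 bp at *Bcl11a* and 2263 and 1020 bp at *Brd2*.

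Members whose marks differed between genotypes were not always those whose H3K4me3 did. *Sin3a* kept 6342 of 6537 bp, *Nrp1* all 6308 bp, *Meis2* 7439 of 7510 bp and *Tgif1* 6488 of 7018 bp. At *Nrp1* H3K27ac covered 0 bp in WT against 910 bp in Delta, and at *Sox11*, where 5921 of 6176 bp kept H3K4me3, it covered 0 and 1878 bp. At *Meis2* H3K27me3 covered 5441 bp in WT and 2010 bp in Delta. *Ptch1* kept all 6470 bp, with H3K27ac over 0 bp in WT but 2244 bp in Delta, and had 985 bp of H2AK119ub in WT and 0 bp in Delta. At *Igf2*, where 6170 of 6384 bp were covered, H2AK119ub covered 2436 bp in WT and 205 bp in Delta.

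Blood transcription factor genes were often within broad peaks. Of 19 listed genes in the annotation, 10 had a TSS in a broad WT peak (52.6%, 31.7 to 72.7) and 5 in a broad Delta peak. The background over all protein-coding genes is the 5.08% and 3.41% given above, and the list was assembled with earlier results of these data known. The 10 members were covered by Delta H3K4me3 over a median of 72.3% of their length (range 48.8% to 93.0%), against 87.6% for all broad peaks, and 6 of 10 were under 75%, against 232 of 980. The widths, in bp of the member and bp covered in Delta, were 6804 and 6325 for *Gata2*, 6428 and 3517 for *Runx1*, 6092 and 4175 for *Tal1*, 5251 and 2564 for the homeobox gene *Hhex*, 5204 and 3823 for the ETS factor gene *Fli1*, and 4860 and 4122 for *Zfpm1*, which encodes the GATA cofactor FOG1. In the regions from either list all 10 were longer in WT, with a median difference of -1260 bp, against -321 bp over all regions. Of the 10 genes, 5 were in a broad peak of WT alone and 0 of Delta alone, so this count partly repeats the choice by length.

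The *Tal1* member (chr4:114728476-114734567) ended 6315 bp before the start of the last coding exon of the gene. A further broad peak of 3523 bp (chr4:114735255-114738777) lay within *Tal1* and spanned its first coding base, but held no annotated TSS and so was not in the list. Delta H3K4me3 covered 1641 bp of it (46.6%). Its H3K27me3 went against that of the TSS member, over 1378 bp in WT but 340 bp in Delta. Its 336 bp of H3K27ac and 852 bp of H2AK119ub in WT were absent in Delta. The cells of both genotypes were sorted for mCherry made from this locus.

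H3K27ac at these members was found at 7 of 10 in WT and at 3 of 10 in Delta, with 5 in WT only. Over all broad peaks these shares were 67.3%, 72.0% and 5.61%. H3K27ac covered 1833 bp of *Tal1*, 876 bp of the LIM-domain cofactor gene *Lmo2*, 820 bp of *Fli1*, 545 bp of *Hhex* and 189 bp of *Gata2* in WT, and 0 bp of each in Delta. It covered 2874 bp of *Zfpm1* in WT and 1014 bp in Delta, whereas at *Etv6*, another ETS factor gene, they were 614 and 1115 bp, and at *Runx1* 0 and 721 bp. H3K27me3 covered more bp in Delta at 5 of the 10 and more in WT at 3. The larger Delta values were 6489 bp against 2997 bp at *Gata2*, 5251 against 3870 at *Hhex*, 5204 against 3050 at *Fli1*, 4077 against 1800 at *Tal1* and 1272 against 850 at *Lmo2*. Those 5 genes are also the ones with H3K27ac in WT only, while over all broad peaks more H3K27me3 bp in WT was the commoner direction. *Myb*, a transcription factor gene of blood progenitors, was fully under H3K27me3 in both genotypes. *Gfi1*, counted apart for its annotation, had 1570 of 3925 bp covered in Delta and was fully under H3K27me3 in both.

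Endothelial and haemangioblast genes had the lowest cover in Delta of the lists. Of 20 genes, 6 had a TSS in a broad WT peak and 2 in a broad Delta peak. Median cover was 56.7% (36.6% to 87.5%), and 5 of 6 were under 75%. For *Kdr* 2957 of 4547 bp were covered, for *Efnb2* 3490 of 6589 bp, for the endothelial factor gene *Sox7* 1785 of 4261 bp, for the junction protein gene *Esam* 1487 of 4058 bp, for the Notch ligand gene *Dll4* 2061 of 3408 bp and for the VEGF receptor gene *Flt1* 2904 of 3320 bp. None of the 6 had H3K27ac in either genotype, and all 6 had H3K27me3 in both. Over all broad peaks, 22.3% had H3K27ac in neither genotype and 57.8% had H3K27me3 in both. At *Sox7* the Delta peak was itself broad (3599 bp) and reached past the WT member of 4261 bp, so the position of the peak differed more than its length. H3K27me3 covered more bp in Delta at 4 of them, including 3386 against 587 bp at *Esam*, and the whole member in both genotypes at *Dll4* and *Flt1*. In the regions from either list all 6 were longer in WT (median -1443 bp), but 4 of the 6 genes were in a broad peak of WT alone and 0 of Delta alone.

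**Figure D4:**
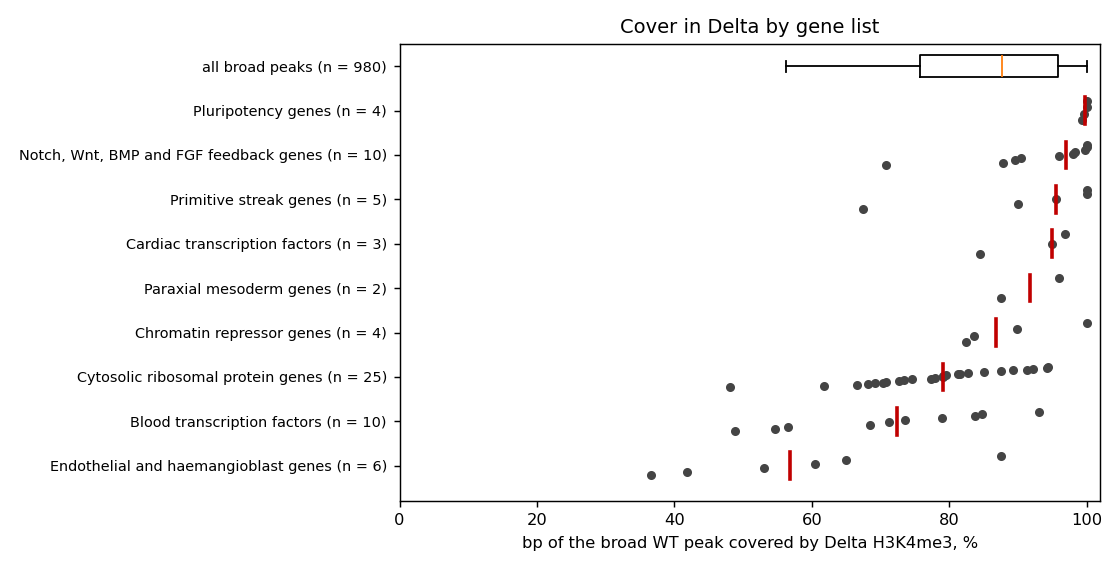
Percent of the bp of each broad WT H3K4me3 peak covered by Delta H3K4me3 peaks, by gene list. Points are members, red bars list medians, and the box shows the median, quartiles and 5th to 95th percentiles of all 980 broad peaks. List medians ran from 56.7% for endothelial and haemangioblast genes to 99.8% for the 4 members of the pluripotency list.

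Members at genes of other lineages were covered over more of their length. The 3 members of the cardiac list were covered over 84.4% to 96.8%, with *Tbx20* at the median. At *Gata6*, 5516 of 6532 bp were covered in Delta, H3K27me3 covered 4138 bp in WT and 1619 bp in Delta, H2AK119ub 967 and 213 bp, and H3K27ac 0 and 599 bp. *Tbx20*, a cardiac T-box gene, kept 4615 of 4858 bp, with 4858 and 3842 bp of H3K27me3. *Foxh1*, a cofactor of Nodal signalling, kept 3126 of 3229 bp. The 2 members of the paraxial list, *Irx5* and *Irx3*, had a median cover of 91.8%.

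Primitive streak genes had 5 of 16 TSSs in a broad WT peak and 7 in a broad Delta peak, with a median cover of 95.5%. *Evx1* was covered over its whole 3252 bp in Delta, and its H3K27me3 went from 3138 bp in WT to 0 bp. *Wnt3* was the exception of the list with 3424 of 5070 bp covered, and its 2027 bp of H2AK119ub in WT were absent in Delta. The pluripotency list had 4 of 17 genes in broad peaks of both genotypes. These were *Tbx3*, *Lin28a*, *Sall4* and *Klf4*, covered over 99.3% to 100%, and all 4 were longer in Delta in the regions from either list (median 808 bp). H3K27ac was found at 2 of them in WT and 4 in Delta, beside 67.3% and 72.0% of all broad peaks. *Tbx3* is grouped by the paper with mesoderm markers. *Pou5f1* and *Nanog*, also on the list, had no H3K4me3 peak at a TSS in either genotype. The values therefore describe these 4 members and not a pluripotency programme. None of the 19 annotated neural transcription factor genes and 1 of 39 Hox genes (*Hoxb2*) had a TSS in a broad WT peak.

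Antagonists and feedback genes of the Notch, Wnt, BMP and FGF pathways were a large group, with 10 of 24 genes in broad WT peaks and 9 in broad Delta peaks. Their median cover was 96.9%. H3K27ac covered more bp in Delta at 8 of the 10 and more in WT at 2, beside 397 and 364 of all 980 members. It covered 1577 bp of *Smad7* in WT and 4242 bp in Delta, 1446 and 2640 bp of *Smad6*, 0 and 1434 bp of the Wnt effector gene *Lef1*, and 0 and 1430 bp of *Hey1*, a Notch target gene. *Spry2* went the other way, with 288 and 0 bp. *Id1*, a target of BMP signalling, was the member with least cover (3014 of 4256 bp).

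Of 23 genes of Polycomb subunits and partners, 4 had a TSS in a broad WT peak, namely *Jarid2*, *Rybp*, *Eed* and *Pcgf2*, and 2 in a broad Delta peak. Delta H3K4me3 covered 4687 of 5214 bp at *Jarid2*, 2849 of 3406 bp at *Rybp*, 2641 of 3203 bp at *Eed* and all 3059 bp at *Pcgf2*, a median of 86.8%, which is close to the 87.6% of all broad peaks. All 4 had H3K27ac in both genotypes, as had 61.7% of all broad peaks, with slightly more bp in Delta, for example 1614 and 1746 bp at *Rybp*.

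Cytosolic ribosomal protein genes, which are among the most highly transcribed genes of growing cells, had 25 of 77 genes in broad WT peaks (32.5%, 23.1 to 43.5) and 12 in broad Delta peaks. Their median cover in Delta was 79.1%, with 10 of 25 under 75%, and the lowest were *Rps24* (1789 of 3723 bp) and *Rpsa* (2141 of 3472 bp). In the regions from either list 24 of 26 were longer in WT, with a median difference of -794 bp, against -321 bp over all regions. Here 14 genes were in a broad peak of WT alone and 1 of Delta alone. Longer peaks in WT were thus not particular to the blood and endothelial lists. H3K27ac was found at 22 of the 25 in WT and 24 in Delta. H3K27me3, which is not usual at such genes, was found at all 25 in WT and 22 in Delta, over a median of 27.5% of the member in WT, and none had H2AK119ub in either genotype. Over all broad peaks, H3K27ac was at 67.3% in WT and 72.0% in Delta, and H3K27me3 at 73.9% and 65.8%. H2AK119ub was in neither genotype at 86.8%. H3K27me3 covered more bp in WT at 21 of the 25. Ribosomal protein genes have many processed copies in the genome, which can take reads from their exons.

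**Figure D5:**
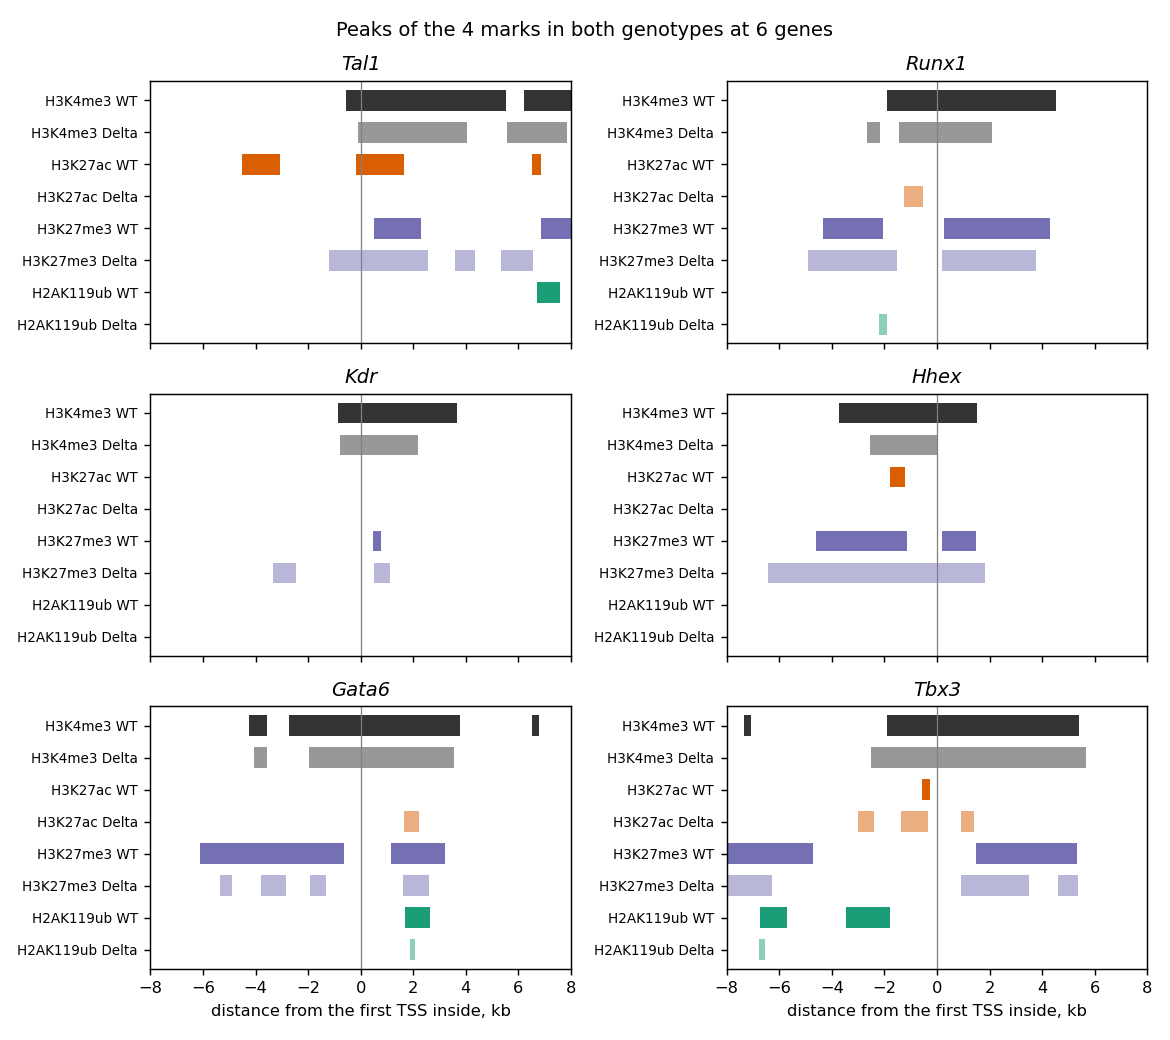
Peaks of the 4 marks in WT (full colour) and Delta (pale) within 8 kb of the first TSS inside 6 broad peaks, as bars by distance from the TSS in kb in the direction of transcription. At *Tal1* the 1833 bp of H3K27ac inside the WT peak have no Delta counterpart and H3K27me3 covers 4077 bp in Delta, whereas at *Tbx3* Delta H3K4me3 covers the whole member.

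The WT-only parts of the broad peaks lay mainly inside genes. A single stretch of at least 500 bp was not covered in Delta in 389 members. Its centre was intronic in 276 (71.0%), intergenic in 51 (13.1%), in a coding exon in 16, in a UTR in 22 and in another exon in 24. In members with 1 coding gene, the centre lay downstream of the TSS in 242 of 285 (84.9%). Members are also longer on that side, and 15.8% of all downstream bp and 14.6% of all upstream bp were not covered in Delta, so the uncovered share per bp was similar on both sides.

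As in the windows printed above, these stretches were poorer in CpG than the centres of covered stretches. Over 500 bp at their centre the median GC content was 44.0% and the median ratio of observed to expected CpG was 0.235, against 63.6% and 0.805 at the centre of the covered stretch of the same 389 members. The central 1000 bp of all broad peaks had a median GC content of 60.3% and a CpG ratio of 0.759, and those of all WT H3K4me3 peaks 59.2% and 0.687. The GATA motif AGATAA was found, on either strand, in 28.0% (23.8 to 32.7) of the uncovered and 10.3% (7.64 to 13.7) of the covered 500 bp windows, and in 9.40% of the same windows at the centre of all WT H3K4me3 peaks. For the E-box CAGATG the shares were 29.6%, 19.5% and 20.2%, and for the E-box CAGCTG 20.1%, 19.5% and 25.9%. AGATAA is AT-rich and the uncovered windows had the lower GC content, and no window matched for GC was compared. All comparison windows lay at the centre of a covered stretch or of a peak. Outer parts that kept H3K4me3 in Delta were not measured. WT-only cover and position within the peak therefore cannot be told apart here. A match is a string of letters and not a bound site.

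The labelled cell type was checked against its markers. In WT, the blood-fated mesoderm markers *Kdr*, *Tal1* and *Lmo2* had a TSS in a broad peak and *Etv2* in a peak of 2475 bp. *Pdgfra*, listed with them but retained by paraxial and cardiac mesoderm, had a TSS in a WT peak of 1388 bp. In Delta the longest *Pdgfra* peak had 5458 bp. Of the endoderm markers, *Afp* and *Ttr* had no H3K4me3 peak at a TSS in either genotype, *Sox17* had 1 in Delta only (1380 bp), *Foxa2* 1 in WT only (1924 bp), and *Foxa1* 1 in both (1785 bp in WT, 1863 bp in Delta). Of the markers of undifferentiated cells, *Pou5f1* and *Nanog* had none in either genotype, *Zfp42* had 1 in Delta only (347 bp), and *Esrrb* had 1 in both (1209 and 1219 bp). So neither other cell type was without any marked promoter, and its part in the results was not tested. A shift in the mixture of sorted cells and a change within each cell cannot be told apart in these bulk libraries.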

How the data were processed

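mCherry+ cells of day 4 EBs were profiled by ChIP-Rx for 4 marks in 2 genotypes, with 1 library each and 2 inputs that were not used here. Per the study's methods and processing notes, the authors aligned reads to mm9 and dm3 with Bowtie, removed duplicates and called broad peaks per library against input with MACS2 2.0.10. No libraries were pooled, and the spike-in scaling applied to signal densities and not to peaks. The deposited lists give the position of each peak and, as made by the authors, a fold enrichment (a ratio) and the −log10 of a p-value and a q-value. They hold no read counts. Read numbers of the libraries are stated in the study's reporting summary and were used here only for the order of depth of the libraries.

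Broad peaks were taken from the WT H3K4me3 list by end minus start of at least 3000 bp. Overlap required 1 bp, and cover counted the shared bp. Coordinates are 1-based on mm9. TSSs came from protein-coding transcripts of 22359 genes of GENCODE M1, and symbols missing there were sought among RefSeq synonyms (*Spi1* and *Tfcp2l1* were found as *Sfpi1* and *Tcfcp2l1*; *Sox1* was not found). Shares have 95% Wilson intervals, which cover counting error only, and neighbouring peaks are not independent. Base composition came from the NCBIM37 genome. No test between genotypes was possible with 1 library per group. The code was tested on simulated peaks and gave the same bp as bedtools 2.31.1 at all 16038 peaks for 7 lists. Python 3.11.15, pandas 2.3.3 and SciPy 1.17.1 were used.

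The members, gene lists and alternatives were chosen with earlier results of these data known. Members named in the text were the 10 longest, the 5 with most bp missing in Delta, the 3 longest of each class of marks, and at most 6 per gene list in order of length. Members named beyond these, and the windows printed, were chosen after their values were seen. Values of some listed genes are not reported here. Alternatives were other length limits (2000 and 4000 bp), joining of peaks up to 1000 bp apart, 50% cover, the central 1000 bp, a −log10 q of at least 3, equal numbers of top peaks, a TSS distance of 2500 bp, the rule run from the Delta list, and omission of chromosomes 1 and 8.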

Additional observations from a re-analysis of the deposited data

How the results depend on the processing

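No paired analysis was possible because each mark had a single library in each genotype. The number of broad peaks was 3585 at a limit of 2000 bp and 285 at 4000 bp. Shares with H3K27ac (WT, then Delta) were 7.76% and 7.24% when 50% of the peak had to be covered, 54.7% and 58.6% in the central 1000 bp, 52.0% and 52.6% with −log10 q of at least 3, and 59.4% and 65.7% at a limit of 2000 bp, and with equal numbers of top peaks the Delta share was 68.5%. Shares with H3K27me3 were 17.9% and 17.7%, 64.3% and 56.3%, 44.6% and 37.1%, and 62.3% and 55.7% under the first 4 of these settings, and 81.1% and 71.2% at 4000 bp. Shares with H2AK119ub were 1.94% and 0.816% at 50% cover, 5.71% and 3.57% in the central 1000 bp, 0.408% and 0.204% at −log10 q of at least 3, and 17.5% and 11.6% at 4000 bp, and the WT share was 7.14% with equal numbers of top peaks. Run from the Delta list, the percent of bp covered by the other genotype was 92.0%, against 84.2%. The other 23 combinations of result and setting stayed within the Wilson interval of the value reported or, for counts, within 1.5 times it. Among them were omission of chromosomes 1 and 8, joined peaks, and a TSS within 2500 bp (1172 genes). For the percent of bp covered, the interval used (81.8 to 86.3) treated that percent as a share of the 980 members. It served as a yardstick only and is not the counting error of that value. The median cover of the blood, endothelial and ribosomal lists was 72.3%, 56.7% and 79.1% also with −log10 q of at least 3, with equal numbers of top peaks, and with Delta peaks joined, settings for lists that were added after seeing the data. Shares that need weakly called peaks depend most on these settings, and most H2AK119ub calls had a −log10 q under 3.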

Other observations

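Delta H3K4me3 peaks of at least 3000 bp that were least covered in WT included several regulators of other mesoderm and of the primitive streak, named after their values were seen. WT peaks covered 4850 of 9663 bp at the lateral mesoderm gene *Foxf1a*, 3442 of 6660 bp at *Evx1*, 3653 of 6624 bp at the cardiac gene *Hand1*, 3030 of 5458 bp at *Pdgfra*, 2459 of 4366 bp at *Six2*, 1593 of 4695 bp at *Tbx2* and 859 of 3987 bp at *Sox9*. At *Foxf1a*, *Evx1*, *Hand1* and *Pdgfra* the Delta stretch joined places where WT had 2 or 3 separate peaks. H3K27me3 covered all 9663 bp at *Foxf1a* in both genotypes, whereas WT and Delta values were 6624 and 5368 bp at *Hand1*, 3987 and 1356 bp at *Sox9*, and 4394 and 0 bp at *Evx1*. H2AK119ub covered 8233 and 4369 bp at *Foxf1a* and 1995 and 0 bp at *Hand1*. At *Six2* H2AK119ub went the other way, with 1310 and 2204 bp.

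Among the 33 broad WT peaks covered over less than 50% of their length in Delta, also named after their values were seen, were those of the ion channel gene *Accn4* (289 of 3081 bp) and of *Epor*, the erythropoietin receptor gene (1421 of 3013 bp). At *Accn4* WT and Delta H3K27me3 covered 1438 and 3081 bp, and H2AK119ub 1853 and 2845 bp, the same direction as at *Slc32a1*.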
